A study of Mus musculus with 20 samples.

Results

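The 10 genes described here carry out antigen presentation by MHC class I in the mouse: B2m, H2-K1, H2-D1, H2-Q7, H2-T23, Tap1, Tap2, Tapbp, Psmb8 and Psmb9. They were chosen by symbol from the 20377 gene symbols of the deposited count table, and each is represented by its most counted transcript. Poly(A) RNA of bone marrow cells was sequenced from male 129S4 mice aged 4 months, either wild-type or Fancd2-/-, a mouse model of Fanconi anemia, a disorder of DNA crosslink repair with bone marrow failure. From weaning on, the mice were fed for 3 months either oxymetholone, an anabolic androgen, at 300 mg per kg of chow, or placebo. KSL cells (cKit+ Sca1+ Lin-, a gate that holds hematopoietic stem and progenitor cells) gave 3 libraries each for Fancd2-/- oxymetholone, Fancd2-/- placebo, wild-type oxymetholone and wild-type placebo, each from the pooled cells of 5 mice. Early erythroblasts (Ter119+, CD71 high, large cells) gave 3 wild-type oxymetholone and 3 wild-type placebo libraries, each from 1 mouse, and Fancd2-/- erythroblasts were not analysed here. Whole bone marrow gave 1 wild-type and 1 Fancd2-/- library, both on placebo and each combined from 5 mice.

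Class I molecules show peptides from inside the cell to CD8 T cells and are read by natural killer cells. The immunoproteasome cuts proteins with inducible subunits that take the place of constitutive ones, and the TAP transporter moves the peptides into the endoplasmic reticulum. There a heavy chain pairs with the light chain beta-2 microglobulin, and tapasin holds TAP to this empty class I molecule. Loaded with a peptide, the molecule reaches the surface. Interferon raises most of these genes through factors such as IRF1, and NLRC5 is a dedicated coactivator at class I promoters.

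Of the members, 9 lie in the MHC on mouse chromosome 17, over 2.11 Mb of mm9, and B2m lies on chromosome 2 (transcript NM_009735, chr2:121973422-121978818, plus strand). The heavy chains are H2-K1 (NM_001001892, chr17:34132956-34137278, minus), H2-D1 (NM_010380, chr17:35400038-35404442, plus), H2-Q7 (NM_001198560, chr17:35576099-35580718, plus) and H2-T23 (NM_010398, chr17:36166921-36169646, minus). Tapbp stands at chr17:34056422-34066235 (NM_001025313, plus). The other members form 1 cluster: Psmb9 (NM_013585, chr17:34319043-34324275, minus), Tap1 (NM_013683, chr17:34324500-34334170, plus), Psmb8 (NM_010724, chr17:34335139-34338399, plus) and Tap2 (NM_011530, chr17:34341423-34353266, plus). Psmb9 and Tap1 start back to back with 224 bases between them, 968 bases separate Tap1 from Psmb8, and 3023 bases separate Psmb8 from Tap2.

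The 200 bases before the transcript start are printed for the light chain and the 4 heavy chains, to show which letters the class I chains share, and the Psmb9-Tap1 interval because 2 members start from it. The letters are those of mm9, 5′ to 3′ on the strand of the gene (plus strand for the interval). Capitals mark matches on either strand to a kB site (GGG, any 2 bases, TTCCC), an interferon-stimulated response element core (GAAA, any 2 bases, GAAA), the CRE core TGACG, a Y box (CCAAT) and, in the interval alone, an Sp1 box (GGGCGG). The windows are chr2:121973222-121973421 (B2m, plus), chr17:34137279-34137478 (H2-K1, minus), chr17:35399838-35400037 (H2-D1, plus), chr17:35575899-35576098 (H2-Q7, plus), chr17:36169647-36169846 (H2-T23, minus) and chr17:34324276-34324499 (interval).
B2m: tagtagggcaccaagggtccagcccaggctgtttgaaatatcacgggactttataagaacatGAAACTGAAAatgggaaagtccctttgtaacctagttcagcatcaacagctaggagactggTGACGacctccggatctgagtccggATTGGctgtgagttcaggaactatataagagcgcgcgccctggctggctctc
H2-K1: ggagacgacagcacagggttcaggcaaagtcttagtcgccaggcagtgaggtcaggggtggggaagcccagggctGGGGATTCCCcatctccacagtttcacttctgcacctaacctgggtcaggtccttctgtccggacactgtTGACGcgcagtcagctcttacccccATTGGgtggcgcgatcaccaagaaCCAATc
H2-D1: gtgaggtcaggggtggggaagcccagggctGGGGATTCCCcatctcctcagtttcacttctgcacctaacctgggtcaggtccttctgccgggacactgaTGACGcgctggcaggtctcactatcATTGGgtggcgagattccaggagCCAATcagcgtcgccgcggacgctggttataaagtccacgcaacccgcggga
H2-Q7: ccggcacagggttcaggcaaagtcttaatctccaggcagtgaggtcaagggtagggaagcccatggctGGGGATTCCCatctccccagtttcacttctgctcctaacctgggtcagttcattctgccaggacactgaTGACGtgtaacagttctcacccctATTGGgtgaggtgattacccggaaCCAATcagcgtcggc
H2-T23: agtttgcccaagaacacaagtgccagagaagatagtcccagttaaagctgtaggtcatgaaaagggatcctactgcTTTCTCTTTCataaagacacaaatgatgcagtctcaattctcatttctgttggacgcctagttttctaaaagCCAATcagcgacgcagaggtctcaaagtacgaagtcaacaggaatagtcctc
Psmb9-Tap1 interval: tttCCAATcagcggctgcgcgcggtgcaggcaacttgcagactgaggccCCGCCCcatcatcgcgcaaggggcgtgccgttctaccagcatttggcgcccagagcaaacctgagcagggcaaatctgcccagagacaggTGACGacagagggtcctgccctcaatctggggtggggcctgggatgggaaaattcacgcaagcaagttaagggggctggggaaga
H2-K1, H2-D1 and H2-Q7 held the same kB match, GGGGATTCCC, 125, 170 and 132 bases before their starts, and in each a CRE core and Y boxes followed in the same order. The kB letters stood in 3 of 10 members and in 1.33% of 20325 windows of this length over all genes. These 3 windows also share long stretches of letters around the match, so they are not separate cases. The same 3 genes enter the CRE core and Y box counts below. The response element core stood in B2m (138 bases before the start), H2-T23 (124 bases) and Tap2 (134 bases), and in 2.3% of all windows. The Tap2 match follows a run made mostly of T, and Tap2 is the member that the RefSeq promoter table lacked. Only exact matches were counted, so a window without one may still hold a near match. A CRE core was found in 6 of 10 members (18.9% of all windows), a Y box in 7 (31.2%) and an Sp1 box in 3 (44.2%). Tap1 and Psmb9 are both counted for the CRE core and the Sp1 box, but from the same letters, since their windows overlap in the interval. The Psmb9-Tap1 interval held a Y box beside the Psmb9 start, an Sp1 box and a CRE core. These are matches of letters and were not tested as binding sites.

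Depth in counted reads (M, mega) was 10.8 M to 121 M per KSL library, 17.2 M to 20.8 M per erythroblast library, and 100 M and 107 M for marrow. Levels are CPM, library-scaled read counts adjusted by the trimmed mean of M values (TMM) over all 20 libraries. Fancd2, the targeted gene, was at 4.69 to 6.16 CPM in the 6 Fancd2-/- KSL libraries and at 12.3 to 16.5 CPM in the 6 wild-type ones. Summed markers separated the labelled populations. The 10 KSL markers such as Kit and Ly6a came to 2191 to 3559 CPM in KSL libraries and to 1.07 to 3.10 CPM in erythroblasts, and the 9 erythroblast markers found, such as Klf1 and Slc4a1, to 42.8 to 207 CPM in KSL libraries and 104210 to 124160 CPM in erythroblasts. The 207 CPM belonged to Fancd2-/- placebo replicate 2, and the other 11 KSL libraries were at 74.0 CPM or below. Nothing in the labels says whether replicates came from separate days, so p-values measure the spread between these libraries.

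All 10 members were expressed in every KSL library, with at least 1672 counts. Per kb of transcript, B2m (mean 2135 CPM per kb over 12 libraries, range 1464 to 2735) and the classical heavy chain H2-K1 (1584, 1409 to 1918) were highest and overlapped. H2-D1, the other classical heavy chain, followed at 656 (501 to 849) and the catalytic immunoproteasome subunit Psmb8 at 333 (264 to 448), each apart from its neighbours in the order. Next came 4 genes whose ranges overlapped: the nonclassical heavy chain H2-T23, which encodes Qa-1, at 147 (115 to 206), the immunoproteasome subunit Psmb9 at 141 (110 to 169), the nonclassical heavy chain H2-Q7, of the Qa-2 family, at 118 (86.9 to 177) and the transporter subunit Tap1 at 95.4 (75.7 to 130). Tapbp, which encodes tapasin, stood at 69.7 (54.3 to 91.8), overlapping Tap1, and the transporter subunit Tap2 was lowest at 31.7 (23.6 to 38.8). The heavy chains resemble each other: coding identity was 87.6% between H2-K1 and H2-D1, and 26.4% of the 51-base stretches of H2-Q7, 16.3% of those of H2-D1, 14.4% of those of H2-T23 and 8.3% of those of H2-K1 also occur in another gene, so their counts are uncertain where reads could be split. The H2-Q9 row of the table held the same count as H2-Q7 in 18 of 20 libraries and differed by at most 4 counts in the other 2, so these rows are 1 measurement. Tap1, Tap2 and Tapbp shared at most 0.8% and B2m, Psmb8 and Psmb9 none.

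**Figure D1:**
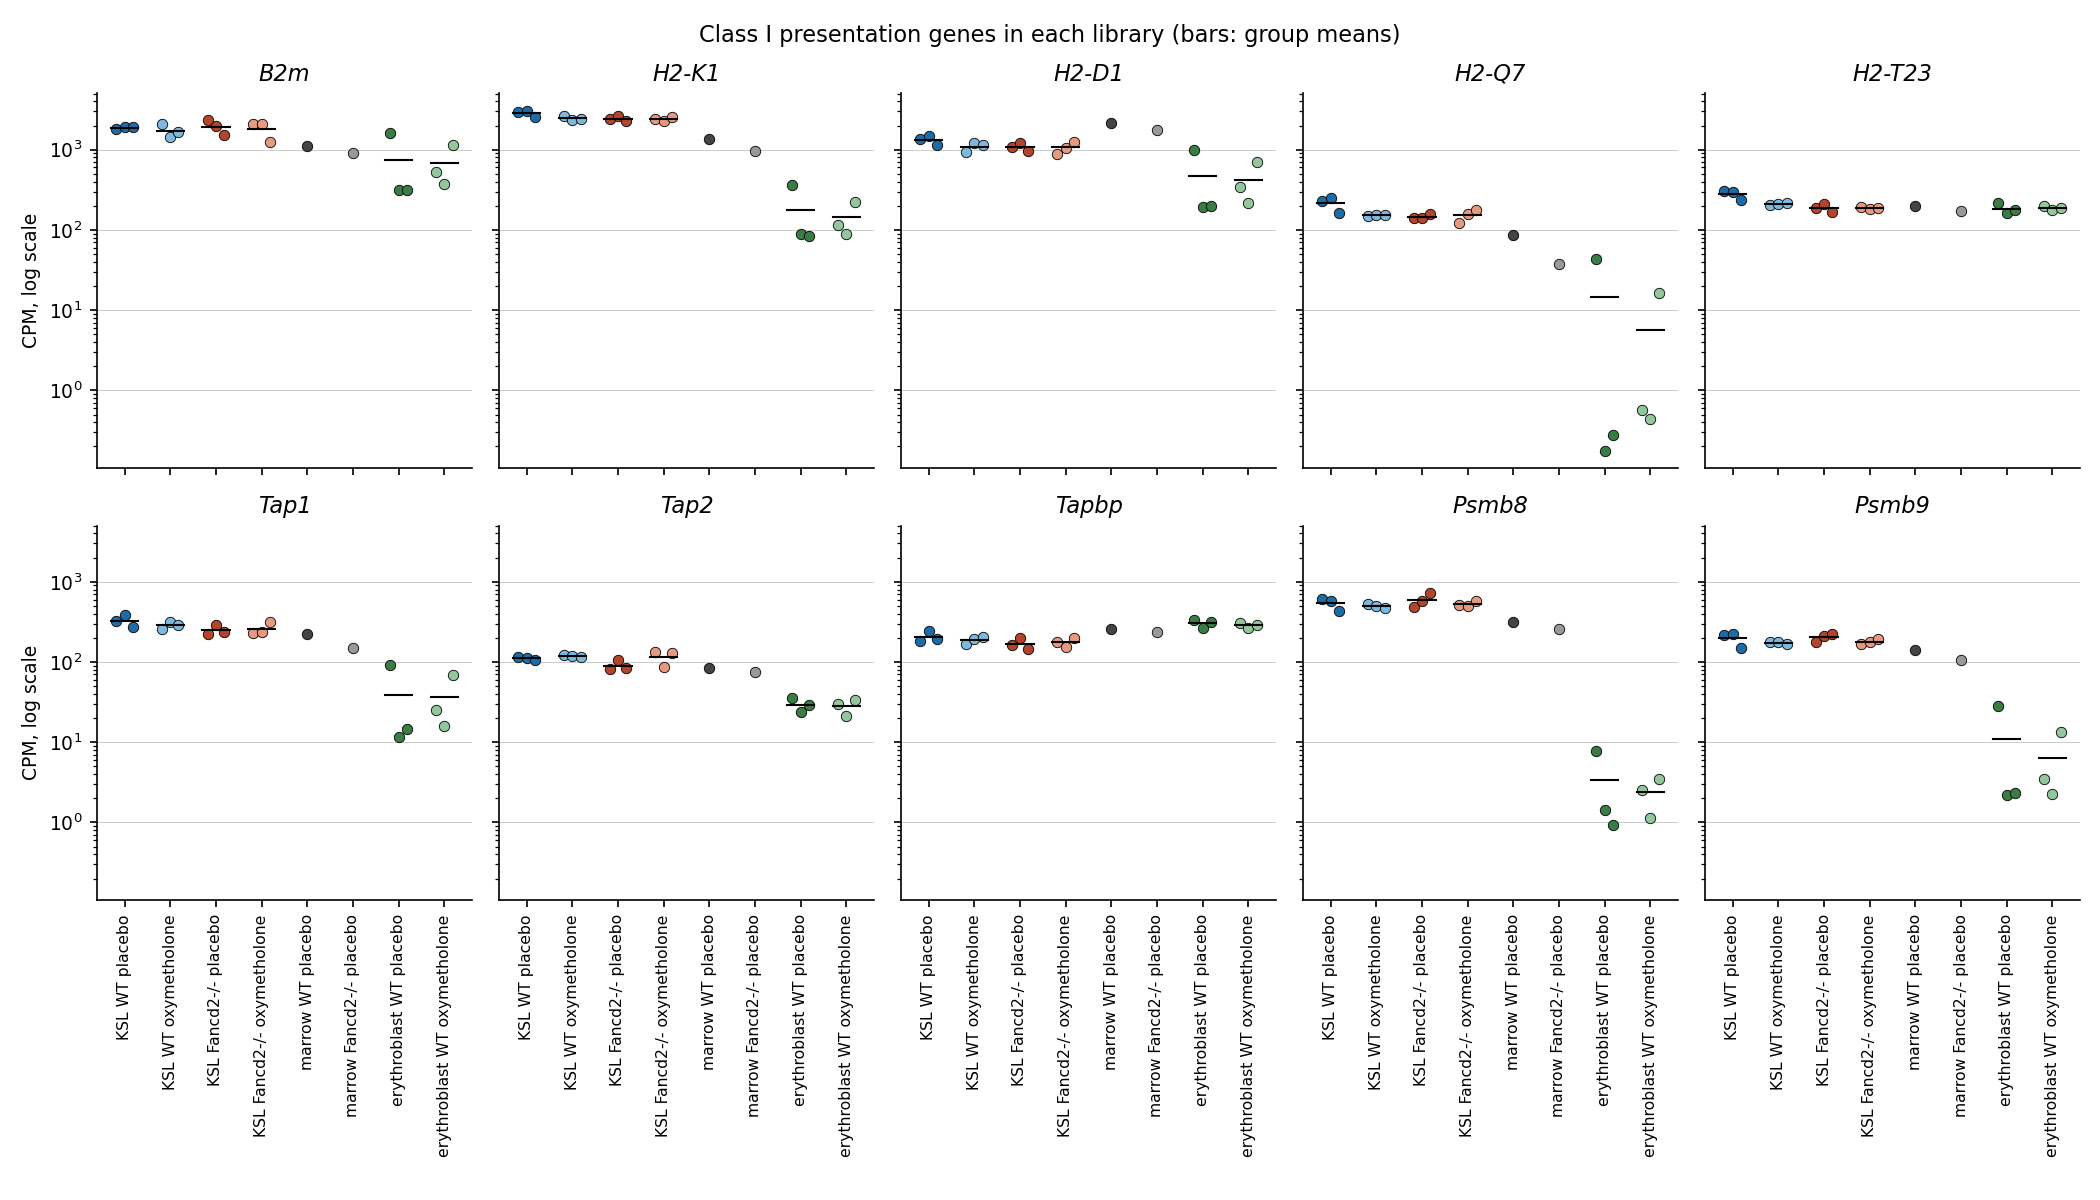
CPM on a log axis (vertical) of each member in each of the 20 libraries, by population, genotype and diet (horizontal); points are libraries and bars are group means. The KSL groups lie close together for every gene, while H2-K1, H2-Q7, Tap1, Tap2, Psmb8 and Psmb9 lie lower in all erythroblast libraries, with erythroblast placebo replicate 1 and oxymetholone replicate 3 above the others for most genes.

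The first comparison asked what loss of Fancd2 changed in KSL cells on placebo. H2-T23 fell and no other member passed the test: 1 of 10 members was called lower and 0 higher, beside 1.28% of 13259 genes called in either direction, 0.777% called lower and 0.505% higher. In wild-type placebo, H2-T23 was at 304, 295 and 234 CPM (mean 277 ± 38.0, SD, n = 3), and in Fancd2-/- placebo at 188, 208 and 169 CPM (188 ± 19.9, SD, n = 3). Every wild-type library lay above every Fancd2-/- library. The log2 difference was -0.52 ± 0.11 (SE; edgeR adjusted p = 0.0438). The call did not hold when any 1 of the 6 placebo libraries was left out (edgeR adjusted p = 0.0567 to 0.175), while the difference stayed between -0.44 and -0.60 in all 12 alternatives.

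H2-Q7 had a difference of like size that missed the threshold. It was at 228, 251 and 163 CPM in wild-type placebo and at 142, 139 and 158 CPM in Fancd2-/- placebo, groups that did not overlap by a narrow margin (log2 difference -0.51 ± 0.16, edgeR adjusted p = 0.116). Tap1 was at 329, 383 and 274 CPM against 224, 289 and 239 CPM, with overlap (-0.36 ± 0.15, edgeR adjusted p = 0.21). Tap2 was at 114, 114 and 107 CPM against 81.2, 106 and 83.3 CPM, without overlap (-0.27 ± 0.15, edgeR adjusted p = 0.325). Groups that did not overlap, with Fancd2-/- lower, were thus seen in 3 of 10 members and in 15.3% of all genes tested, and the reverse in 0 members and 9.31% of all genes. An unadjusted p under 0.05 was found for 3 of 10 members and 19.6% of all genes.

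The remaining members gave smaller differences on placebo. H2-K1 was at 2979, 3078 and 2549 CPM in wild-type and 2388, 2611 and 2270 CPM in Fancd2-/- cells (log2 difference -0.21 ± 0.11), and H2-D1 at 1358, 1482 and 1145 against 1095, 1213 and 967 CPM (-0.25 ± 0.15). Both classical heavy chains overlapped between genotypes through the third wild-type library. Tapbp (-0.25 ± 0.15), B2m (0.08 ± 0.20), Psmb8 (0.20 ± 0.16) and Psmb9 (0.08 ± 0.15) overlapped too. Heavy chains, peptide transport and Tapbp thus had negative estimates, and the light chain and both immunoproteasome subunits positive ones. Of all 10, only H2-T23 passed the test. Over the 12 alternatives B2m ran from -0.07 to 0.22 and Psmb9 from -0.06 to 0.19, so their signs were not stable, while Psmb8 stayed positive. The median over the 10 members was -0.25, beside -0.01 over all genes.

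Among the wider gene lists, H2-Q6, a Qa-2 family heavy chain, was the only gene of these lists called in this comparison: 1 of 14 other class I heavy chains tested was called lower and 0 higher. It was at 66.0 to 80.5 CPM in wild-type placebo and 37.1 to 40.3 CPM in Fancd2-/- placebo (log2 difference -0.90 ± 0.16, edgeR adjusted p = 0.0204), and 20.4% of the 51-base stretches of H2-Q7 also occur in it. Of these 14 heavy chains, which include the H2-Q9 row that repeats H2-Q7, 13 had negative estimates (median -0.27). Among the most expressed genes of the lists without a call were the class I-like receptor Procr (-0.17 ± 0.13), the loading chaperone Calr (0.18 ± 0.22), the proteasome activator Psme1 (0.19 ± 0.14), the constitutive subunit Psmb4 (0.35 ± 0.18), the Y box factor Nfya (0.04 ± 0.11), the kinase Jak1 (-0.14 ± 0.13) and the interferon-induced Rsad2 (-0.13 ± 0.28). None of 12 class I-like molecules outside the MHC (median 0.02), 11 loading and trimming genes (0.08), 4 other immunoproteasome genes (0.26), 16 constitutive proteasome genes (0.45), 18 class I regulators (-0.22), 11 interferon receptor and signalling genes (0.01) or 25 interferon-induced genes (-0.10) was called.

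Some sums of other markers moved with these values, and others overlapped or leaned the other way. The 8 dendritic cell and class II genes summed to 991, 1250 and 509 CPM in wild-type placebo replicates 1, 2 and 3, the order of H2-Q7 with replicates 1 and 2 high, and to 483 to 589 CPM in Fancd2-/- placebo. H2-Eb1, a class II chain, was called lower in Fancd2-/- placebo (log2 difference -1.18 ± 0.27, edgeR adjusted p = 0.0473). The KSL marker sum was also lower in Fancd2-/- placebo, at 2191 to 2944 CPM, than in wild-type placebo, at 3216 to 3559 CPM. B cell markers ranged from 53.5 to 81.7 CPM in wild-type and from 61.4 to 71.1 CPM in Fancd2-/- placebo, T and NK cell markers from 93.6 to 130 and from 127 to 188 CPM, and monocyte and macrophage markers from 53.6 to 87.1 and from 83.8 to 113 CPM. Neutrophil markers ranged from 756 to 989 and from 387 to 1050 CPM, and stromal and endothelial markers from 90.8 to 104 and from 80.3 to 133 CPM. Cd3e, 1 of the 9 T and NK cell markers found, was at 0 CPM in all 3 wild-type placebo libraries, while the 9 together came to 93.6 to 130 CPM. Its values in Fancd2-/- placebo are not given here. The part of these genes in the class I differences was not tested, and in such bulk libraries fewer cells of a type cannot be told apart from less RNA per cell.

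On oxymetholone, the same genotypes did not differ in any member by the test. None of 10 members was called by edgeR (0.128% of all genes were, 0.098% lower and 0.0302% higher), none had an unadjusted p under 0.05 (5.57% of all genes did), and none was called by DESeq2 or limma voom. H2-T23 was at 207, 211 and 217 CPM in wild-type and at 193, 180 and 185 CPM in Fancd2-/- cells, again without overlap (log2 difference -0.18 ± 0.11). It was the only member that did not overlap with Fancd2-/- lower, which 6.96% of all genes did, and none did with Fancd2-/- higher (5.02% of all genes). H2-Q7 was at 149, 154 and 155 CPM against 123, 158 and 179 CPM, with wide overlap (0.01 ± 0.16). The median over the members was -0.02, beside 0.01 over all genes.

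The next comparison asked what oxymetholone changed in wild-type KSL cells, pair by pair. No member was called, as no gene at all was (0% of 13259 by edgeR, with 357 genes or 2.69% at an unadjusted p under 0.05), and DESeq2 and limma voom called no member either. H2-Q7 was lower with oxymetholone in 3 of 3 pairs, at 149 against 228, 154 against 251 and 155 against 163 CPM (log2 difference -0.45 ± 0.14, unadjusted p = 0.00589, edgeR adjusted p = 0.999). H2-T23 was lower in 3 of 3 pairs, at 207 against 304, 211 against 295 and 217 against 234 CPM (-0.36 ± 0.12, unadjusted p = 0.00882, edgeR adjusted p = 0.999). In both genes the third pair differed least, and the groups did not overlap, as in 5.59% of all genes in that direction. H2-K1 and H2-D1 were also lower in 3 of 3 pairs, with overlap between groups (-0.20 ± 0.10 and -0.26 ± 0.13). Tap2 was higher in 3 of 3 pairs, at 121 against 114, 120 against 114 and 115 against 107 CPM (0.11 ± 0.16), groups that did not overlap, as in 3.05% of all genes in that direction. Of 10 members, 9 had negative estimates, with a median of -0.16 beside -0.01 over all genes. By pair, the median of the members was -0.25, -0.34 and 0.03.

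These oxymetholone values and the genotype values on placebo share the wild-type placebo libraries. That group had the highest mean for 6 of 10 members, as for 33.9% of all genes tested, and its second replicate was the highest of the 12 libraries for 6 of 10 members, as for 9.47% of all genes. Averaged over the members, log2 CPM relative to the mean of the 12 libraries was 0.22, 0.32 and -0.04 in wild-type placebo replicates 1, 2 and 3 and between -0.14 and 0.04 in the other 9 libraries. The third wild-type placebo library thus lay with the other groups. The second was the deepest of the 12 KSL libraries (121 M counted reads) and the third the shallowest (10.8 M). The part of depth in these values was not tested.

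In Fancd2-/- KSL cells, oxymetholone changed no member by the test, again with 0% of all genes called by edgeR and 903 genes (6.81%) at an unadjusted p under 0.05, none of them a member. No member had groups that did not overlap (3.05% of all genes did with oxymetholone higher, 3.94% lower). Tap2 had the largest estimate, at 133 against 81.2, 86.0 against 106 and 131 against 83.3 CPM in the 3 pairs, higher in 2 and lower in 1 (log2 difference 0.34 ± 0.16, edgeR adjusted p = 0.688). H2-T23 (-0.02 ± 0.12), H2-Q7 (0.04 ± 0.14) and H2-K1 (-0.02 ± 0.10) had estimates within their error of 0. Psmb9 was lower in 3 of 3 pairs, at 167 against 176, 175 against 210 and 195 against 225 CPM (-0.19 ± 0.12). The median over the members was -0.02, beside -0.01 over all genes.

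Whether oxymetholone acted differently in the genotypes was tested directly. No member was called for the interaction (0% of all genes by edgeR, 457 genes or 3.45% at an unadjusted p under 0.05), and H2-Q7 had the only unadjusted p under 0.05 among members (log2 difference of differences 0.49 ± 0.19, edgeR unadjusted p = 0.0238, edgeR adjusted p = 0.953). For H2-T23 it was 0.34 ± 0.17. The mean oxymetholone effect over both genotypes called no member (0% of all genes by edgeR, 720 genes or 5.43% at an unadjusted p under 0.05). It ranged from -0.20 in H2-Q7 to 0.22 in Tap2, and H2-T23 alone among members had an edgeR unadjusted p under 0.05 (-0.19 ± 0.08, edgeR unadjusted p = 0.0378, adjusted p = 0.868). No gene of the 8 wider lists was called in any oxymetholone comparison of KSL cells. Of the 25 interferon-induced genes, 24 had negative estimates in wild-type cells (median -0.25) and 24 in Fancd2-/- cells (median -0.25), beside medians of -0.01 and -0.01 over all genes.

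**Figure D2:**
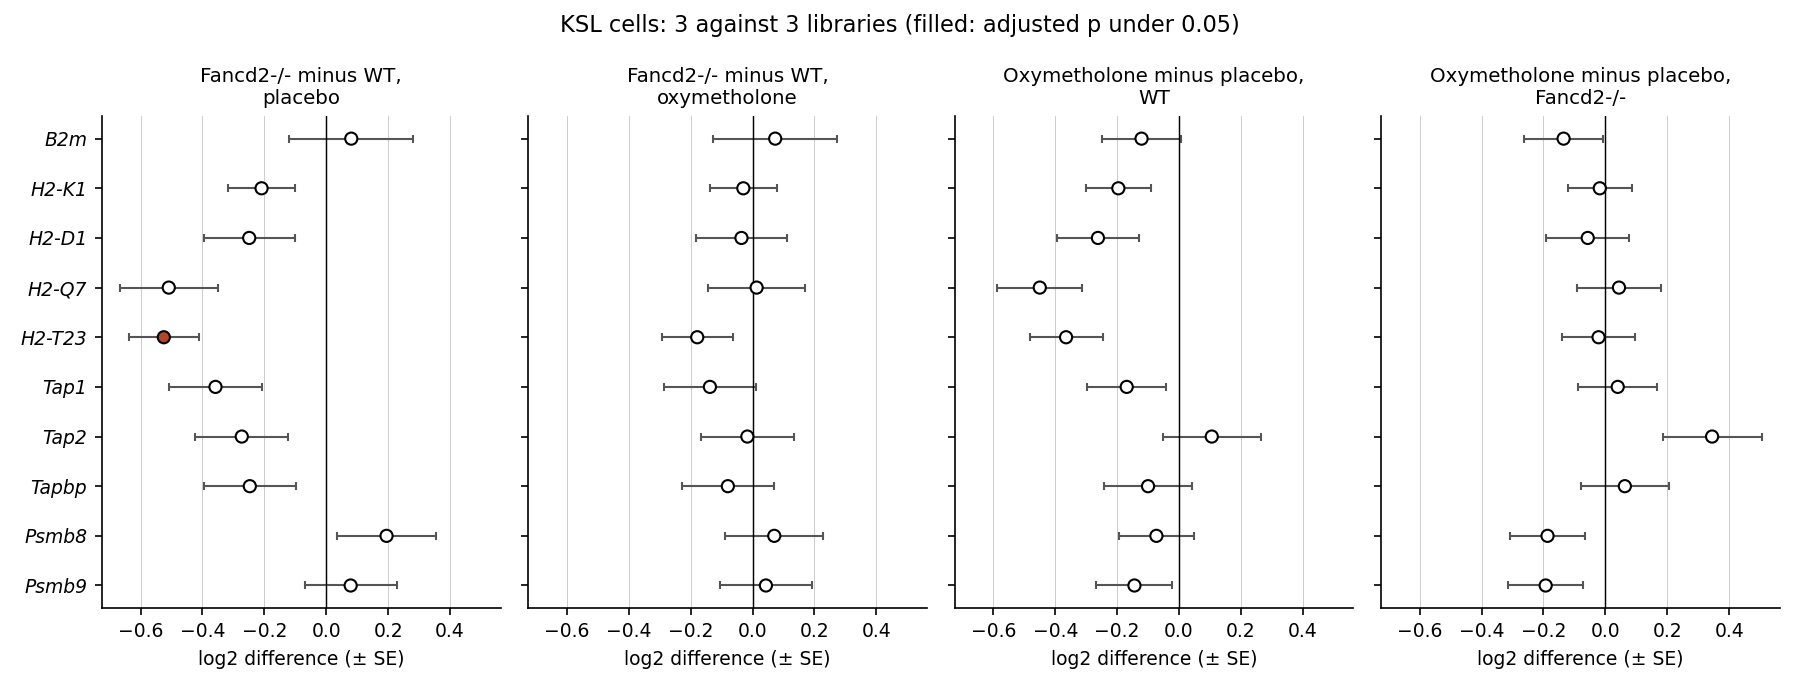
Log2 differences (horizontal, with standard error) of the 10 members (vertical) in 4 comparisons of KSL libraries, 3 against 3 each; the filled point passed an edgeR adjusted p under 0.05. H2-T23 on placebo (-0.52) is the 1 filled point, and H2-Q7 and H2-T23 are the lowest in the first and the third panel, which share the wild-type placebo libraries.

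Members did not vary together alike over the 12 KSL libraries. Pearson's r of a member's log2 CPM with the mean of the other 9 was 0.91 for H2-K1, 0.86 for Tap1, 0.84 for H2-T23, 0.79 for H2-Q7 and 0.77 for H2-D1, but 0.24 for Tap2, 0.14 for Psmb8 and -0.29 for B2m. The gene outside the set most like the mean of the 10 members was Trafd1, a negative regulator of innate immune signalling (r = 0.92 over 12 libraries, among 11678 genes), and the others named by the same measure were 3110062M04Rik, the class II chain H2-Eb1, Cdh29, Zfp707, the class II chain H2-Ab1 and the ISG15-activating enzyme Uba7 (r = 0.89). These r values describe libraries of 4 groups that differ in depth.

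The largest differences lay between populations. In wild-type mice on placebo, 6 of 10 members were lower in erythroblasts than in KSL cells and 1, Tapbp, was higher, in a comparison where 91% of 12538 genes were called (53.7% lower, 37.2% higher). On library totals alone, with no TMM, all 10 members were called lower, and over all alternatives 5 to 10 members were called. Groups did not overlap in 9 members with erythroblasts lower (54.9% of all genes) and in 1 with erythroblasts higher (37% of all genes). Psmb8 was at 7.67, 1.42 and 0.94 CPM in erythroblasts, from 10 to 71 counts, and at 613, 575 and 429 CPM in KSL cells, far apart (log2 difference -7.34 ± 0.75, edgeR adjusted p = 0.000536). Psmb9 was at 28.4, 2.22 and 2.34 CPM against 220, 226 and 148 CPM (-4.16 ± 1.10, edgeR adjusted p = 0.0199). Psmb8 thus had the lowest estimate with TMM and all 6 libraries, while the estimate of Psmb9 lay within its error of those of H2-K1 and H2-Q7.

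H2-K1 was at 361, 88.5 and 84.4 CPM in erythroblasts against 2979, 3078 and 2549 CPM in KSL cells (log2 difference -3.95 ± 0.79, edgeR adjusted p = 0.00739). Tap1 was at 91.7, 11.6 and 14.7 CPM against 329, 383 and 274 CPM (-3.02 ± 0.97, edgeR adjusted p = 0.0371), and Tap2 at 35.5, 23.8 and 29.3 against 114, 114 and 107 CPM (-1.86 ± 0.14, edgeR adjusted p = 2.84e-09). In each of these genes erythroblast placebo replicate 1 was the highest of its group. H2-T23 was at 214, 161 and 179 against 304, 295 and 234 CPM (-0.53 ± 0.13, edgeR adjusted p = 0.00142), the smallest difference among the members with TMM. Tapbp was at 330, 267 and 317 CPM against 181, 244 and 191 CPM (0.63 ± 0.13, edgeR adjusted p = 0.000295). The size of these differences, and the sign of Tapbp, depend on the scaling: on library totals alone, which put the median of all genes at -2.08 in place of -0.67, Tapbp was at -0.79 (edgeR adjusted p = 1.52e-06) and H2-T23 at -1.94, with 115, 91.9 and 95.5 against 417, 405 and 341 CPM. The members' median lay below that of all genes on both scales, at -2.44 with TMM and -3.865 on library totals.

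B2m, H2-D1 and H2-Q7 missed the threshold with TMM, and in each 1 erythroblast library lay far above the other 2. B2m was at 1633, 312 and 317 CPM in erythroblasts (log2 difference from KSL cells -1.25 ± 0.82, edgeR adjusted p = 0.211), H2-D1 at 1000, 191 and 200 CPM (-1.45 ± 0.82, edgeR adjusted p = 0.158) and H2-Q7 at 42.8, 0.18 and 0.28 CPM (-3.88 ± 1.60, edgeR adjusted p = 0.0751). With that library, placebo replicate 1, left out, all 10 members were called, B2m at -2.52, H2-D1 at -2.71 and H2-Q7, with 2 and 3 counts left in erythroblasts, at -9.80, and the median moved to -3.65. With all 6 libraries kept, these 3 also passed on library totals (edgeR adjusted p = 0.0333, 0.0266 and 0.0319) and on the deposited normalized matrix (limma adjusted p = 0.0120, 0.0095 and 0.0193). The call of Tap1 was lost when any other 1 of the 6 libraries was left out (edgeR adjusted p = 0.0735 to 0.0898), and that of Psmb9 without KSL replicate 1 or 2 (0.0523 and 0.0547). Per kb of transcript over the 6 erythroblast libraries, B2m stayed highest (mean 832 CPM per kb), then H2-D1 (254), H2-T23 (126), Tapbp (112) and H2-K1 (100), with Tap1 at 12.9, Tap2 at 8.36, H2-Q7 at 7.10, Psmb9 at 6.49 and Psmb8 last at 1.76. The ranges of H2-T23 and Tapbp lay within that of H2-K1, and B2m overlapped H2-D1.

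**Figure D3:**
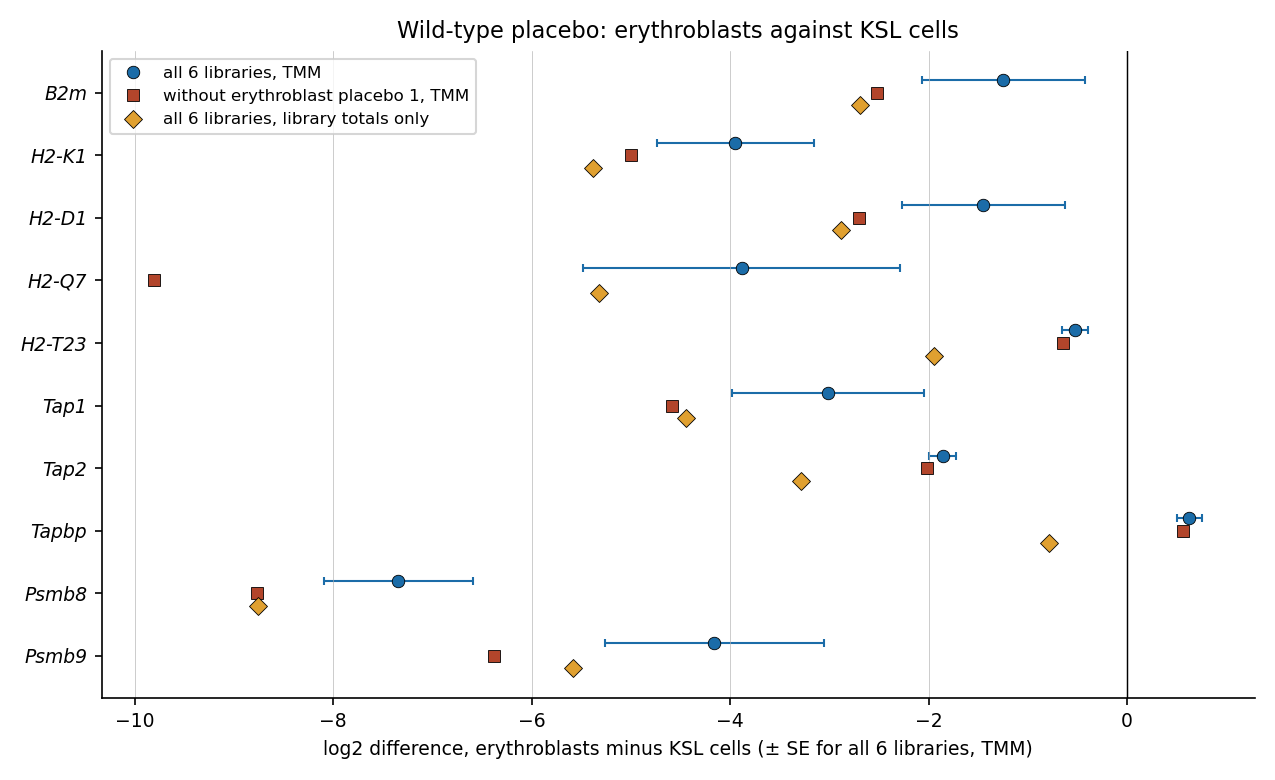
Log2 difference, erythroblasts minus KSL cells of wild-type mice on placebo (horizontal), for each member (vertical), from all 6 libraries with TMM (circles, standard error), without erythroblast placebo replicate 1 (squares) and on library totals alone (diamonds). Psmb8 and Psmb9 lie far to the left in all 3, H2-Q7 moves most when the 1 library is left out, and Tapbp crosses 0 between the scalings.

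Other genes of the pathway differed between erythroblasts and KSL cells in both directions. All 4 other immunoproteasome genes were lower, Psmb10, the third inducible subunit, at -4.92 ± 0.36 (log2 difference), Psme1 at -2.54 ± 0.14, Psme2 at -2.20 ± 0.17 and Pomp, the assembly chaperone, at -0.87 ± 0.14. Of 16 constitutive proteasome genes, 5 were higher and 5 lower (median 0.04), among them Psme3, a nuclear activator, at 3.45 ± 0.11, Psme4 at 2.43 ± 0.10, Psmb7 at 1.38 ± 0.12 and Psma1 at 1.12 ± 0.10. On library totals alone the constitutive split was 2 higher and 13 lower, with Psme3 at 2.03 and Psme4 at 1.01 but Psmb7 at -0.04 and Psma1 at -0.30, and the 4 immunoproteasome genes stayed lower. With TMM all named genes of these lists were called, with an edgeR adjusted p of at most 2.11e-05.

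Of 11 other class I heavy chains tested, 7 were lower and 1 higher, with the H2-Q9 row among the 3 not called. H2-T9 and H2-T22, both called, are near copies whose counts differed by at most 3.54% in any library. The higher gene was H2-T24, at 715, 517 and 606 CPM in erythroblasts and 6.37 to 7.49 CPM in KSL cells (log2 difference 6.47 ± 0.16, edgeR adjusted p = 1.28e-14), while H2-M3, which presents formylated peptides, was at -5.71 ± 0.26. All 7 class I-like molecules outside the MHC that were tested were lower, among them Cd1d1, which presents lipids, at -7.24 ± 0.22. In loading and trimming, 7 of 11 genes were higher and 3 lower (median 0.71), with the aminopeptidase Lnpep at 2.84 ± 0.15, the chaperone Hspa5 at 1.62 ± 0.11, the tapasin homolog Tapbpl at -3.14 ± 0.17 and the hydrolase Blmh at -1.10 ± 0.12. On library totals alone the loading and trimming split turned to 1 higher and 9 lower, with Lnpep at 1.42 and Hspa5 at 0.20, the heavy chain split was 1 higher and 9 lower (8 without H2-Q9), with H2-T24 at 5.06, and the 7 class I-like genes stayed lower.

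Of 18 class I regulators, 9 were lower and 4 higher (median -0.62). Nfkb1, the p50 subunit of NF-kB, was at -4.94 ± 0.17 and Rfx5, of the complex at the X box of class I promoters, at -4.32 ± 0.16, against the Y box subunits Nfyb at 2.19 ± 0.10 and Nfyc at 2.02 ± 0.12. Of 11 interferon receptor and signalling genes, 5 were lower and 4 higher, with both chains of the interferon-gamma receptor lower, Ifngr1 at -4.20 ± 0.13 and Ifngr2 at -4.31 ± 0.22, the inhibitor Socs1 at -6.49 ± 0.27 and the kinase Jak2 at 2.93 ± 0.13. Of 25 interferon-induced genes, 19 were lower and 3 higher (median -2.19), with Trim30a at -6.68 ± 0.26, Gbp2 at -6.40 ± 0.27, Mx2 at -5.45 ± 0.44 and Gbp3 at -4.63 ± 0.26. Beyond these 4, named by smallest p, Rsad2 was at 7.05, the highest estimate of the list, and Isg15 at 4.18. Both stayed positive on library totals alone (5.63 and 2.77). The 25 genes summed to 1175 to 2575 CPM in wild-type placebo erythroblasts and to 1073 to 1432 CPM in wild-type placebo KSL cells. On library totals alone the splits were 2 higher and 15 lower for the regulators, with Nfyb at 0.77 and Nfyc at 0.60, 1 higher and 9 lower for the receptors and signalling, and 2 higher and 21 lower for the interferon-induced genes. With TMM every gene given here with a standard error was called, with an edgeR adjusted p of at most 8.80e-09.

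Within the erythroblasts, oxymetholone changed no member by the test, and no gene was called (0% of 9694 by edgeR, 123 genes or 1.27% at an unadjusted p under 0.05, none of them a member, and 0 genes by DESeq2 or limma voom). H2-Q7 did not pass the filter on low counts, so 9 members were tested. Estimates ran from -0.77 ± 1.41 in Psmb9 to -0.01 ± 0.10 in H2-T23, and the standard error was 0.81 to 1.41 for B2m, H2-K1, H2-D1, Tap1, Psmb8 and Psmb9. In every member the groups overlapped, while 3.79% of all genes did not overlap with oxymetholone higher and 2.31% with it lower. Without placebo replicate 1 the estimates of 8 of the 9 turned positive, all but Tapbp, to 1.10 in B2m, 1.10 in H2-D1, 1.46 in Tap1 and 1.46 in Psmb9, and none was called. Other alternatives moved them as far down. Over all alternatives B2m ran from -0.78 to 1.10, Tap1 from -0.935 to 1.46 and Psmb9 from -1.92 to 1.46. The median of the members ran from -0.78 to 0.98, so no direction was stable.

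Each of these libraries is 1 mouse, and the mice differed within both diets. In B2m the placebo libraries were at 1633, 312 and 317 CPM and the oxymetholone libraries at 526, 370 and 1138 CPM, so placebo replicate 1 and oxymetholone replicate 3 stood above the other 4. H2-Q7 was at 42.8, 0.18 and 0.28 CPM on placebo and at 0.56, 0.44 and 16.2 CPM on oxymetholone, from 2 to 396 counts. Psmb9 was at 28.4, 2.22 and 2.34 and at 3.47, 2.29 and 13.4 CPM, and Tap1 at 91.7, 11.6 and 14.7 and at 25.5, 16.0 and 68.3 CPM. The same 2 mice thus led in the light chain, a heavy chain, the transporter and the immunoproteasome. H2-T23 (161 to 214 CPM), Tapbp (266 to 330 CPM) and Tap2 (21.4 to 35.5 CPM) varied far less.

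Placebo replicate 1 was the highest erythroblast library for 10 of 10 members, as for 16.5% of 9694 genes tested, and it and oxymetholone replicate 3 both lay above the other 4 for 8 of 10 members, as for 5.07% of all genes. The lists were not alike in this: that order held for 4 of 5 other heavy chains, 9 of 15 interferon-induced genes and 5 of 18 class I regulators, but for 1 of 4 other immunoproteasome genes and for 0 of 16 constitutive proteasome genes, 0 of 11 loading and trimming genes, 0 of 10 interferon receptor and signalling genes and 0 of 2 class I-like molecules. Nlrc5 was at 10.5 CPM in placebo replicate 1, at 3.01 CPM in oxymetholone replicate 3 and at 0.66 to 1.31 CPM in the other 4. Irf1 was at 9.51 CPM in placebo replicate 1 and at most 2.07 CPM elsewhere, the interferon-induced GTPase Igtp at 807 against 234 to 483 CPM and the ubiquitin-like Isg15 at 226 against 82.7 to 112 CPM. The constitutive subunit Psmb5, which Psmb8 replaces, was at 22.4 to 26.8 CPM in all 6. These regulators were chosen after their values were seen.

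Markers of other cells were set beside this order. B cell markers summed to 5.62 CPM in placebo replicate 1, 3.29 CPM in oxymetholone replicate 3 and 3.64 to 4.41 CPM in the other 4, and T and NK cell markers to 4.43, 6.67 and 4.48 to 5.34 CPM. Cd3e, 1 of the 9 T and NK cell markers, was at 0 CPM in both of the high libraries, while the sum of the 9 was highest in oxymetholone replicate 3. The 11 monocyte and macrophage markers came to 163.7 CPM in placebo replicate 1, 104 CPM in oxymetholone replicate 3 and 78.6 to 124 CPM in the others, and the 8 dendritic cell and class II genes to 313, 177 and 91.9 to 180 CPM. Neutrophil markers ranged from 291 to 517 CPM over the 6 libraries. The part of such cells in the order was not tested.

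**Figure D4:**
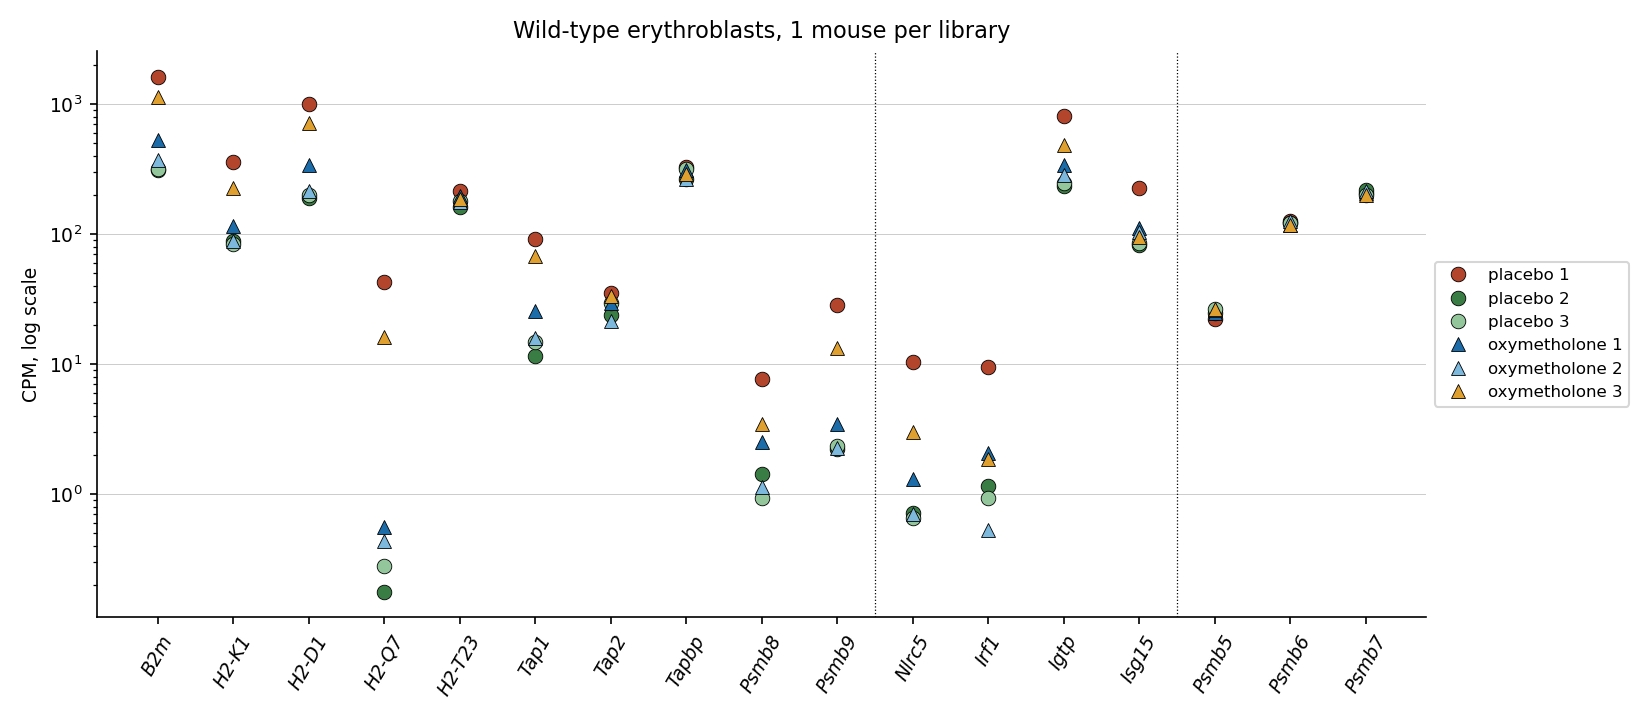
CPM on a log axis (vertical) of the 10 members, 4 interferon pathway genes and 3 constitutive proteasome subunits (horizontal, separated by dotted lines) in the 6 wild-type erythroblast libraries, circles for placebo and triangles for oxymetholone. Placebo replicate 1 and oxymetholone replicate 3 are the top points of B2m, H2-K1, H2-D1, H2-Q7, Tap1, Tap2, Psmb8 and Psmb9, while the points of Psmb5, Psmb6 and Psmb7 coincide.

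In whole bone marrow on placebo, with 1 library per genotype and so no replicate check, all 10 members were lower in the Fancd2-/- library, where 5844 of 11819 genes were. Of these, 4 were lower by more than 1.25-fold, a size chosen after the values were seen and passed in that direction by 2.37% of all genes, and 0 were higher by that much, as 3.56% of all genes were. H2-Q7 was at 37.2 CPM in Fancd2-/- and 87.2 CPM in wild-type marrow, a ratio of 0.426 (95% interval for counting error alone 0.409 to 0.444). Tap1 was at 148 and 221 CPM (ratio 0.670, 0.655 to 0.685), H2-K1 at 951 and 1375 CPM (0.692, 0.686 to 0.698) and Psmb9 at 107 and 140 CPM (0.761, 0.741 to 0.782). The other 6 ranged from 0.817 in H2-D1 to 0.929 in Tapbp, with B2m at 0.823 and H2-T23 at 0.869. The median ratio was 0.820 over the members and 1.0009 over all genes.

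Related genes were lower in the Fancd2-/- marrow library too. Of 9 other class I heavy chains, leaving out the H2-Q9 row that repeats H2-Q7, 7 were lower by more than 1.25-fold, among them the near copies H2-T9 and H2-T22, H2-Q6 (ratio 0.446, 0.416 to 0.479) and H2-T10 (0.712, 0.674 to 0.753). H2-Q10 was the 1 with a ratio above 1 (1.19, 1.15 to 1.24). Of 25 interferon-induced genes 14 were lower by that size, with 24 below 1 (median 0.700), such as Isg15 (0.475, 0.452 to 0.498) and Igtp (0.513, 0.500 to 0.526). Nlrc5 had a ratio of 0.632 (0.584 to 0.683). None of 16 constitutive proteasome genes (median 0.976) or 11 loading and trimming genes (median 1.02) passed that size. The class II chains had ratios above 1, with H2-Aa at 1.47 (1.45 to 1.49) and H2-Ab1 at 1.37 (1.35 to 1.39). Summed neutrophil markers were at 130090 CPM in Fancd2-/- and 122130 CPM in wild-type marrow, erythroblast markers at 32463 and 33768 CPM, B cell markers at 951 and 936 CPM, monocyte and macrophage markers at 1795 and 1766 CPM, stromal and endothelial markers at 298 and 249 CPM, and T and NK cell markers at 233 and 209 CPM. Most of the last sum was Nkg7, a granule protein of NK and cytotoxic cells, at 148 and 140 CPM, while T cell genes had higher ratios: Cd8a 1.96 (1.66 to 2.32), Cd3g 1.93 (1.66 to 2.24), Cd3e 1.55 (1.39 to 1.74), Cd4 1.35 (1.20 to 1.51) and Cd3d 1.17 (1.10 to 1.23). The part of the mix of cells in these ratios was not tested.

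**Figure D5:**
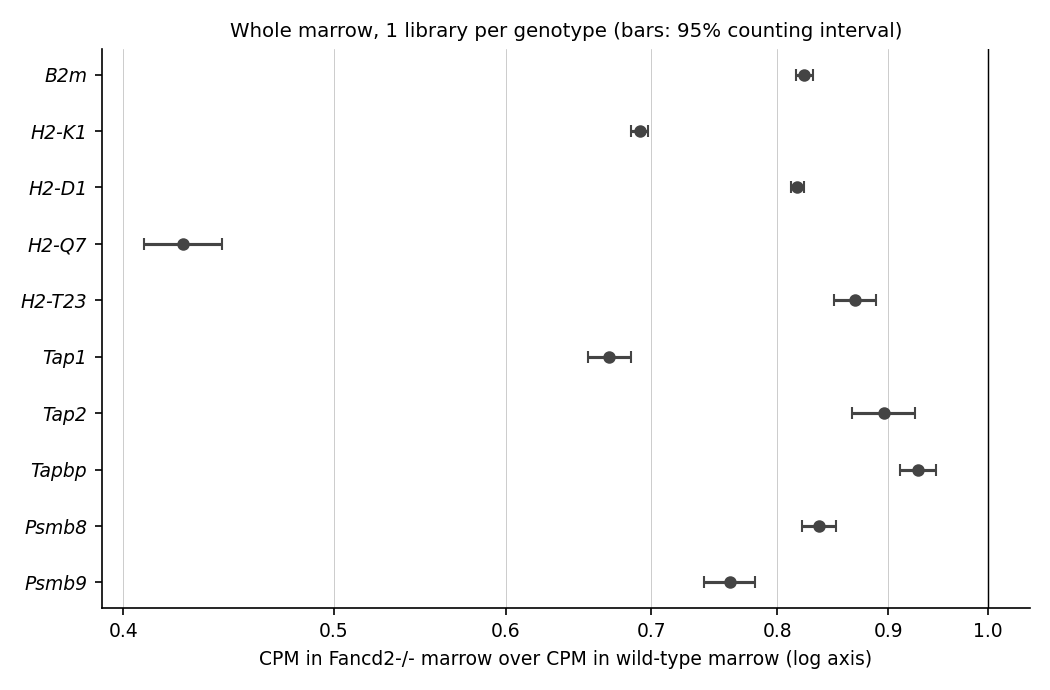
Ratio of CPM in Fancd2-/- to CPM in wild-type whole marrow (horizontal, log axis) for each member (vertical); bars are 95% intervals for counting error alone, with 1 library per genotype. All 10 ratios lie below 1, from 0.426 in H2-Q7 to 0.929 in Tapbp.

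Set beside placebo KSL cells of the same genotype, marrow was lower for most members. In wild-type mice 8 of 10 members lay below the range of the 3 KSL libraries. In Fancd2-/- mice 7 of 10 did, with H2-T23 within it. On library totals alone 9 of 10 did in each genotype, all but H2-D1. How many of all genes lay below that range is not given here, so these counts have no background beside them. H2-K1 in marrow stood at 0.479 times the KSL mean in wild-type and 0.393 times in Fancd2-/- mice, and H2-Q7 at 0.407 and 0.254 times. H2-D1 lay above the KSL range in both genotypes, at 1.62 and 1.61 times the KSL mean, and Tapbp at 1.24 and 1.40 times, but on library totals alone the same ratios were 0.966 and 0.962 for H2-D1 and 0.741 and 0.837 for Tapbp. Over all 20 libraries, which differ mostly by population, the gene most like the members' mean was Nlrc5 (r = 0.99 among 11960 genes), then H2-Q9, whose row repeats H2-Q7, H2-T10, Irf1, AW112010, Ap3m2, H2-DMa and H2-Q8 (r = 0.97). Of the members themselves, Psmb9 and Tap1 followed the rest most closely (r = 0.996 and 0.995), H2-T23 less (0.47), and Tapbp ran opposite (-0.74). These r values are for TMM-scaled CPM, and the sign for Tapbp depends on that scaling. On library totals alone Tapbp was at 200 to 336 CPM in KSL libraries, 213 and 197 CPM in marrow and 145 to 178 CPM in erythroblasts.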

How the data were processed

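RNA of KSL cells (12 libraries), erythroblasts (6) and whole marrow (2) was read to 51 bases, per the labels' protocols. The submitters' processing notes name Bowtie, edgeR and mm9. For their versions, for strand and for multiply matching reads, the treatment is not given in the sources used here. The authors deposited counts for 26005 transcripts (20377 symbols) and a normalized matrix, used as an alternative, which holds a score: its columns each sum to 20 M (mega) and hold rounded, rescaled counts. Both tables gave 20 libraries. One placebo column was matched to the Fancd2-/- replicate 1 sample with the closest name.

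In R 4.3.3, edgeR 4.0.16 fitted robust quasi-likelihood models to the counts that passed filterByExpr, with TMM scaling and Benjamini-Hochberg adjustment over all genes tested, and called at an adjusted p under 0.05. Adjusted p-values come from edgeR except where stated. The oxymetholone effect in KSL libraries was fitted over 12 libraries with a block for the pairs that, per the series design text, shared a flow cytometer setting. Deviations of the 2 libraries of a pair from their group means correlated at -0.06 to 0.27 over 13259 genes in the 6 pairs. In the 12 combinations across different pairs of a genotype the range was -0.34 to 0.28, which reached as high. Genotype, constant within a pair, was tested with group means. Erythroblasts and the populations were tested with group means over 6 libraries each. Log2 values are estimate ± SE. Marrow ratios have exact 95% intervals of counting error, over genes with 100 counts or more. Alternatives included DESeq2 1.42.0, limma 3.58.1 voom and libraries left out. The tests were checked on simulated data.

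Transcript lengths are those of GENCODE mouse M1. Promoters were read from the NCBIM37 (mm9) sequence, and the RefSeq promoter table held the same letters for 9 of 10 members. All members are described. Of 8 wider lists (other class I heavy chains, class I-like molecules, loading and trimming, other immunoproteasome genes, constitutive proteasome, class I regulators, interferon receptors and signalling, interferon-induced genes) up to 4 called genes with the smallest p are named, or, with no call, among the 2 with the highest CPM. Genes most like the members are the 8 with the highest Pearson r of log2 CPM (prior count 2, mean of at least 1 CPM). Some items were left out and are not reported here. Members and lists were chosen with earlier results of these data known.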

Additional observations from a re-analysis of the deposited data

How the results depend on the processing

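In KSL cells on placebo, the count of members called (1) was 0 with no filter on low counts (H2-T23 at an edgeR adjusted p of 0.0513), 2 with limma voom (H2-T23 and H2-Q7) and 0 to 0 with 1 library left out. The median of the members for genotype on oxymetholone, -0.02, was -0.10 with limma voom and lay between -0.087 and 0.006 with 1 library left out. For erythroblasts against KSL cells the median, -2.44, was -4.14 on the deposited normalized matrix, -3.865 on library totals (an alternative added after the data were seen) and between -3.646 and -2.15 with 1 library left out, and Tapbp reversed to -0.74 and -0.79 in the first 2. All genes called ranged from 19 to 1412 for genotype on placebo (170 in the main test, 809 with DESeq2, 1412 with limma voom), from 2 to 86 for genotype on oxymetholone (17 in the main test, 86 with DESeq2), from 0 to 16 for oxymetholone in Fancd2-/- cells, 0 to 100 in wild-type cells, 0 to 20 for their mean and 0 to 1 for the interaction, with 0 in each main test. Without the replicate block the members called stayed at 0 and the medians were -0.02 in Fancd2-/- cells, -0.17 in wild-type cells, -0.13 for their mean and 0.20 for the interaction. Over all alternatives 1263 values kept direction and side of the threshold or moved by less than the spread, 65 moved, 12 passed the threshold, 14 no longer passed it and 2 reversed. Not every change of sign is among these 2. For oxymetholone in erythroblasts B2m ran from -0.78 to 1.10, Tap1 from -0.935 to 1.46 and Psmb9 from -1.92 to 1.46. Shared sequence among heavy chains, 3 libraries per group and 1 marrow library per genotype limit these results.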
